A study of Mus musculus with 9 samples.

Results

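The genes described here were Trp53, which encodes p53, 6 genes that p53 is known to switch on (Cdkn1a, Mdm2, Ccng1, Phlda3, Bax and Bbc3) and the 3 genes of the GADD45 family (Gadd45a, Gadd45b and Gadd45g). The rule gives the 10 genes by name, and they were chosen with earlier results of these data known, so that their counts beside the shares of all genes are a description. They were 10 of 27203 gene IDs in the table, each as the sum over the rows of the gene, and all 10 passed the filter on low values. The unit is FPKM (fragments counted on a transcript, scaled by its length and by the mapped fragments of the library), so that levels can be compared between genes.

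Ventilator-induced lung injury (VILI) was modelled in young adult male C57BL/6 mice by ventilation at a high tidal volume under anaesthesia (ketamine and xylazine) with muscle relaxation (pancuronium), and whole lungs were sequenced. The 9 libraries were 3 controls (intubated, not connected to the ventilator), 3 taken at the end of ventilation (VILI 0 hours) and 3 taken 6 hours after it (VILI 6 hours). No group carried a modified gene, and no group was ventilated at a low tidal volume, so that effects of ventilation as such and of the high tidal volume cannot be told apart. The questions were which of these genes differed from control at each time, and whether the times differed from each other.

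p53 is a transcription factor that is kept low by the ubiquitin ligase MDM2 and is stabilised after DNA damage and other stress, mainly at the level of the protein. It then switches on genes that halt the cell cycle, repair DNA or start apoptosis, and also Mdm2 itself, which closes a feedback loop. The GADD45 proteins are small stress sensors that bind the kinase MAP3K4 upstream of p38 and JNK, as well as PCNA and CDK1. Gadd45a is a classical target of p53, whereas Gadd45b and Gadd45g are also driven by inflammatory cytokines and other signals.

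Alveolar epithelial, airway epithelial and endothelial markers were present in all 9 libraries, as the labelled tissue would have them. The library VILI 6 hours replicate 1 stood apart. Its mean absolute log2 gap to the control libraries was 0.399, against 0.617 to the other libraries of its own group, and the summed FPKM of 5 erythroid markers was 489 there against 3225 to 5419 in the other 8 libraries. Airway epithelial markers summed to 41595 FPKM there against 23581 to 32788, and macrophage markers to 627 against 198 to 386. Lymphocyte markers summed to 18.8 against 30.7 to 79.5. In VILI 0 hours replicate 3 the summed FPKM of 7 cardiac muscle markers was 367, against 164 to 198 in the other 8. Counts for the 10 genes and the pathway lists that rest on VILI 6 hours replicate 1 are given with and without that library. Neutrophil markers (14 genes, 12 of them tested) were higher after ventilation, with summed levels of 54.4 to 66.1 FPKM in control, 585 to 1057 at VILI 0 hours and 498 to 2219 at VILI 6 hours. Of the 12, 10 rose at VILI 0 hours and 11 at VILI 6 hours by the test described next. Mpo and Elane, made early in neutrophil development in the bone marrow, stayed below the filter. Counts for the markers of other cells can be read against the shares of all genes given next. Of 10 alveolar epithelial markers 3 rose at VILI 0 hours, and 2 rose and 1 fell at VILI 6 hours. The 5 erythroid markers were higher in all VILI 0 hours libraries (summed 4915 to 5419 FPKM) than in all controls (3225 to 4182), and none passed the test in the fit of all 9 libraries, whereas all 5 rose in the fit without VILI 6 hours replicate 1. Of 7 macrophage markers 2 rose at VILI 0 hours and 3 at VILI 6 hours. Of 6 fibroblast markers 1 rose and 2 fell at VILI 0 hours, and 2 fell at VILI 6 hours. Of 7 endothelial markers 1 rose and 1 fell at VILI 0 hours and 3 fell at VILI 6 hours, and of 9 lymphocyte markers 1 and then 3 fell. In the fit without VILI 6 hours replicate 1, 3 endothelial markers rose and 4 fell at VILI 6 hours. There 2 lymphocyte and 2 airway epithelial markers fell and all 12 neutrophil markers tested rose, where 12.8% of all genes rose and 26% fell. At VILI 0 hours that fit had 4 macrophage markers that rose, and 1 fibroblast marker that rose and 3 that fell. Its shares of all genes that rose and fell at VILI 0 hours were 8.98% and 14.2%. The part of these cells in the results for the genes below was not tested, and in whole lung fewer cells of a type and less RNA per cell cannot be told apart.

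Differences were tested with limma on log2(FPKM + 0.1) over 19378 genes. A gene is said to have risen or fallen where the unadjusted P was under 0.05, the threshold of the study. By this rule 16.2% of all genes tested were called at VILI 0 hours vs control (6.81% up, 9.35% down), 20.4% at VILI 6 hours vs control (8.17% up, 12.2% down) and 10% at VILI 6 hours vs VILI 0 hours (5.06% up, 4.94% down). None of the 10 genes had an adjusted p (Benjamini-Hochberg, over all genes tested) under 0.05 in the fit of all 9 libraries, against 0.284% and 0.702% of all genes in the comparisons with control and 0 genes between the times. Of the 10, 4 rose and 1 fell at VILI 0 hours, and 5 rose and none fell at VILI 6 hours. Cdkn1a and the 3 GADD45 genes rose at both times, Phlda3 fell at VILI 0 hours and Bbc3 rose at VILI 6 hours. All 3 VILI libraries lay above all controls for 4 of the 10 genes at VILI 0 hours and for the same 4 at VILI 6 hours, against 12% and 9.64% of all genes. Both comparisons use the same 3 control libraries, so that the 2 counts do not stand as separate evidence.

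**Figure D1:**
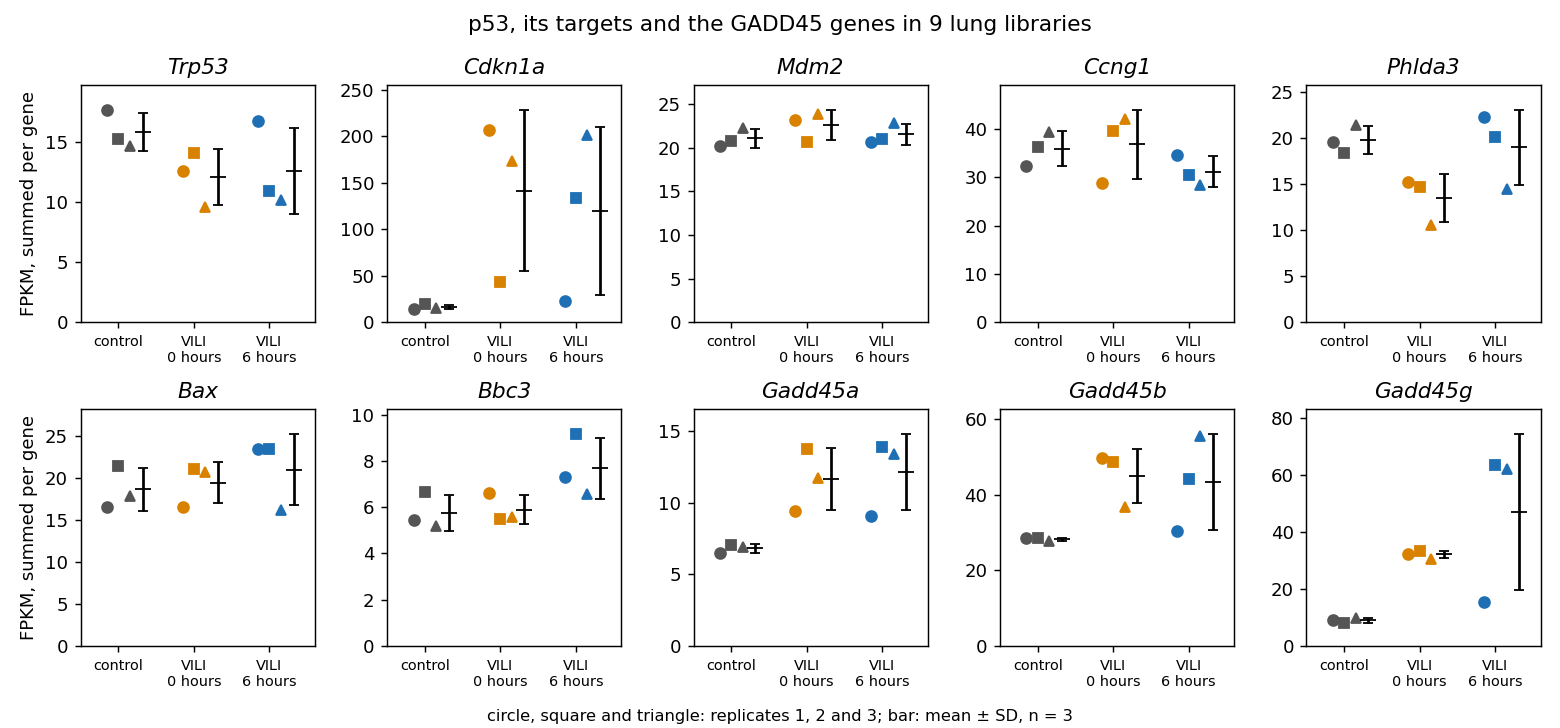
FPKM summed per gene (y axes, linear, from 0) of the 10 genes in the 3 groups, with 1 point for each library (circle, square and triangle for replicates 1, 2 and 3) and a bar for the mean ± SD (n = 3). All VILI libraries lie above all controls for Cdkn1a, Gadd45a, Gadd45b and Gadd45g, and replicate 1 of VILI 6 hours is the lowest of its group for each of these 4 genes.

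In control lungs the highest of the 10 was Ccng1 at 36.0 ± 3.53 FPKM (SD, n = 3) and the lowest was Bbc3 at 5.75 ± 0.78 FPKM. Gadd45b followed Ccng1 at 28.3 ± 0.41 FPKM, with no overlap between the libraries of this pair. Mdm2 (21.1 FPKM), Phlda3 (19.8), Bax (18.6), Cdkn1a (16.3) and Trp53 (15.8) came next, and each overlapped its neighbour in this order. Gadd45g (8.93 FPKM) stood clear of both its neighbours, while Gadd45a (6.81) and Bbc3 overlapped. Cdkn1a was thus mid-ranked among these genes in control lungs.

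Trp53 (chr11:69580359-69591873, plus strand, GRCm38) was read at 17.6, 15.2 and 14.7 FPKM in the 3 control libraries, at 12.6, 14.1 and 9.53 at VILI 0 hours and at 16.7, 10.9 and 10.2 at VILI 6 hours. All 3 libraries of VILI 0 hours lay below all controls, as they did for 21.6% of all genes, while VILI 6 hours overlapped control through replicate 1. The log2 fold change was −0.40 (95% interval −0.87 to 0.059, limma adjusted p = 0.373) at VILI 0 hours and −0.36 (−0.82 to 0.10, adjusted p = 0.342) at VILI 6 hours, and neither passed the threshold. Without VILI 6 hours replicate 1, Trp53 fell at both times, by 0.40 (limma adjusted p = 0.144) and by 0.58 (adjusted p = 0.0358) on the log2 scale. Without VILI 0 hours replicate 2 it fell by 0.52 at VILI 0 hours. The summed transcript of the factor itself was called higher in none of these fits.

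The table splits Trp53 into 4 rows with no transcript names, and the split varied more between libraries than the sum did. In control replicate 2, row 4 held 14.6 of the 15.2 FPKM, and rows 1 and 3 held 0.59 and 0.039 FPKM. In the other 8 libraries row 4 held 0.78 to 2.88 FPKM, and rows 1 and 3 held most of the sum. The row with the highest mean gave Trp53 a log2 fold change of 1.37 at VILI 0 hours and 1.87 at VILI 6 hours, opposite in sign to the sum. This was row 3, at 7.21, 0.039 and 5.18 FPKM in control, so that both values rest on control replicate 2. It held 4.57, 4.80 and 3.92 FPKM at VILI 0 hours and 5.63, 7.54 and 5.86 FPKM at VILI 6 hours. Cdkn1a showed no such exchange, since row 3 held most of its sum in every library.

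**Figure D2:**
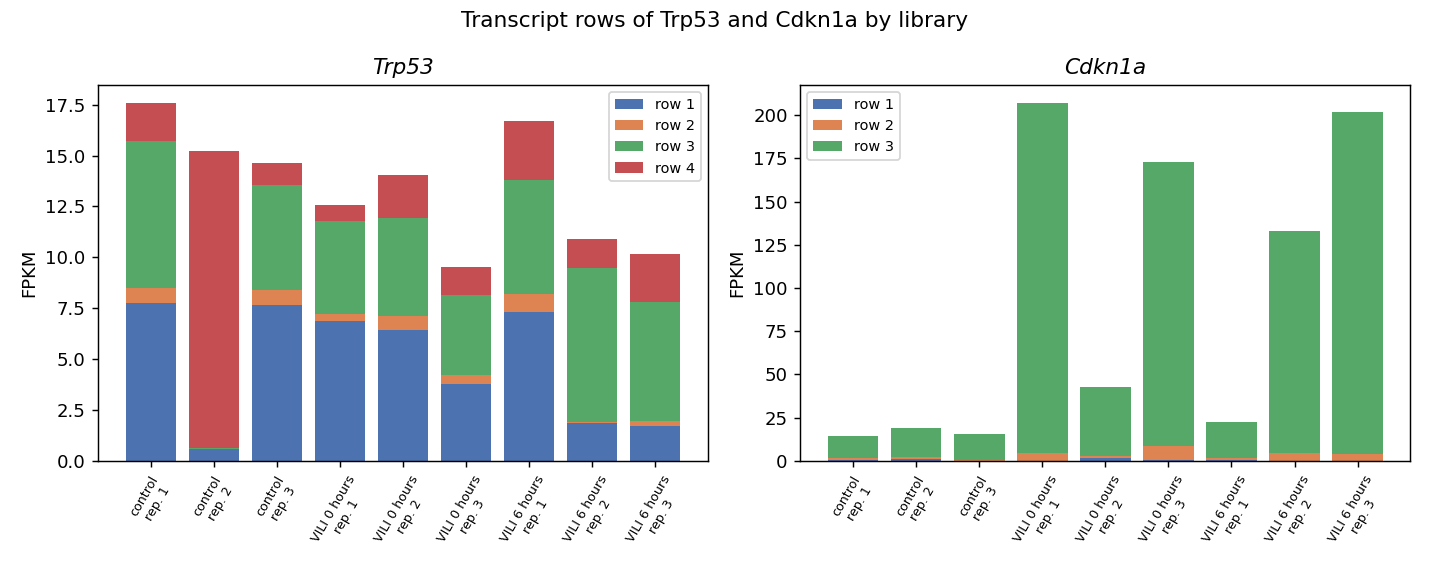
FPKM (y axes) of each row of Trp53 (left) and Cdkn1a (right) in the 9 libraries, stacked to the sum of the gene. The 4 rows of Trp53 trade places in control replicate 2, where row 4 reaches 14.6 FPKM, while row 3 makes up most of Cdkn1a throughout.

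Mdm2 (chr10:117688875-117710758, minus strand), the ligase that targets p53 for degradation and itself a p53 target, had the smallest standard error of the 10. It was read at 20.3, 20.7 and 22.3 FPKM in control, 23.2, 20.6 and 23.9 at VILI 0 hours and 20.7, 21.1 and 22.9 at VILI 6 hours. The 3 groups overlapped. The log2 fold change was 0.095 (95% interval −0.12 to 0.31) at VILI 0 hours and 0.030 (−0.19 to 0.25) at VILI 6 hours, and neither passed the test (limma adjusted p = 0.669 and 0.878).

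Ccng1 (chr11:40748552-40755311, minus strand) encodes cyclin G1, which acts with the phosphatase PP2A on MDM2. Its level was 32.3, 36.3 and 39.4 FPKM in control, 28.8, 39.7 and 42.1 at VILI 0 hours and 34.7, 30.6 and 28.4 at VILI 6 hours. The groups overlapped in each comparison. The log2 fold change was 0.018 (−0.33 to 0.36, limma adjusted p = 0.965) at VILI 0 hours and −0.21 (−0.55 to 0.14, adjusted p = 0.457) at VILI 6 hours. Without VILI 0 hours replicate 1, Ccng1 was lower at VILI 6 hours than at VILI 0 hours by the test (log2 fold change −0.39).

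Cdkn1a (chr17:29090976-29100727, plus strand) encodes p21, the inhibitor of cyclin-dependent kinases through which p53 halts the cell cycle. RefSeq gives it 2 starts 2790 bases apart, and the 250 bases before each (GRCm38.p6, plus strand) are shown because this gene had the largest change of the 10. The first is chr17:29090729-29090978 and the second chr17:29093519-29093768. Capitals mark matches to the half-site of the p53 motif, searched on both strands.
Cdkn1a, upstream start: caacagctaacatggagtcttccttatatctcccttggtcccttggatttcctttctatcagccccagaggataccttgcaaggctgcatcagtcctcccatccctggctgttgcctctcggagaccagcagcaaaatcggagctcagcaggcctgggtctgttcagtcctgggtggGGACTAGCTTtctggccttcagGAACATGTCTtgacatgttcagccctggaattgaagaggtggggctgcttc
Cdkn1a, downstream start: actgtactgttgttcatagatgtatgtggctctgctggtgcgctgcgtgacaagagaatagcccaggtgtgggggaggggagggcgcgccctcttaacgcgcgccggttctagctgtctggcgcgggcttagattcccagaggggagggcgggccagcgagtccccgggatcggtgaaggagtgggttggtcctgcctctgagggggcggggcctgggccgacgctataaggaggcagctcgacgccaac

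The second half-site of the upstream window forms, with the 10 bases after it, the 20-base site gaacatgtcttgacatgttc (chr17:29090928-29090947), which meets the p53 motif in 19 of 20 letters. Of all 32851 promoter windows of this length, 25 (0.0761%) held a site of at least 19 matching letters, and among the 10 genes Ccng1 was the other with one (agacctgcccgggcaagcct, chr11:40755462-40755481, on its minus strand). The 10 genes had 13 windows, and a half-site was found in 6 of them (1 each of Trp53, Cdkn1a, Mdm2, Ccng1, Bax and Gadd45a), against 7.13% of all windows. These are matches of letters, and binding was not measured. Genes with a match included Cdkn1a and Gadd45a, which rose, and Mdm2, Ccng1 and Bax, which passed no test against control in the fit of all 9 libraries.

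The level of Cdkn1a was 14.2, 19.0 and 15.6 FPKM in control, 207, 43.0 and 173 at VILI 0 hours and 22.4, 133 and 202 at VILI 6 hours. All 6 VILI libraries lay above the highest control, but 1 library of each time (replicate 2 at VILI 0 hours, replicate 1 at VILI 6 hours) was far below the other 2. The mean was 8.66 times that of control at VILI 0 hours and 7.31 times at VILI 6 hours. On the log2 scale the rise was 2.83 (SE 0.79, limma adjusted p = 0.135) and 2.38 (SE 0.79, adjusted p = 0.156). An exact permutation test of 3 against 3 libraries gave p = 0.1 at both times, the smallest it can give (two-sided).

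Leaving out any 1 of the 9 libraries kept the rise of Cdkn1a at VILI 0 hours, between 2.41 and 3.54. At VILI 6 hours the call was lost without replicate 2 (2.05) or replicate 3 of that group (1.75), and the rise was 3.33 (adjusted p = 0.0061) without replicate 1. Between the times the difference was −0.45 (95% interval −2.23 to 1.33), wide enough to hold a change in either direction. A transcript annotated on the opposite strand (AC167363.2) overlaps Cdkn1a. The labels name a TruSeq RNA kit and the methods of the study a directional NEBNext kit, and the strand setting of the counting was not given in the sources used here, so whether its reads were kept apart from those of Cdkn1a is not known.

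**Figure D3:**
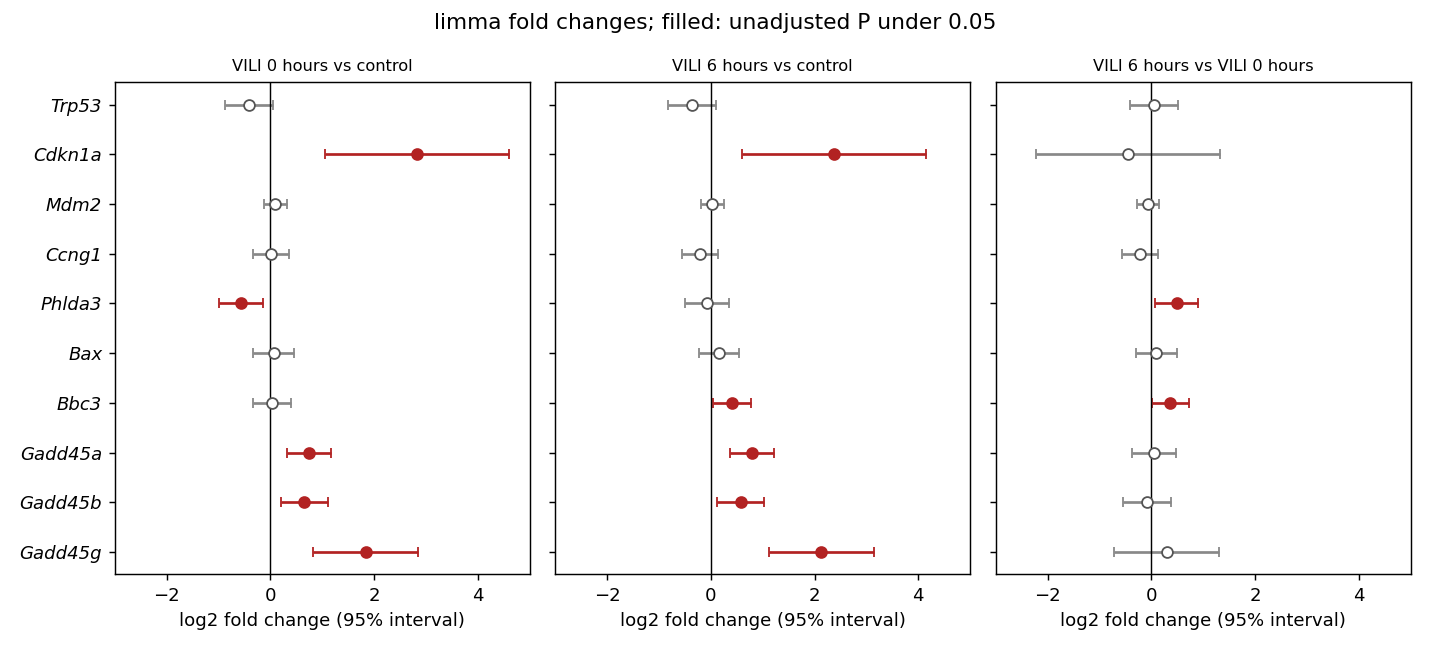
log2 fold changes (x axes) of the 10 genes (rows) with 95% intervals from limma in the 3 comparisons, with filled points for an unadjusted P under 0.05. Cdkn1a has the largest fold change (2.83 and 2.38) with the widest interval, the 3 GADD45 genes rise at both times, and Mdm2 has the narrowest interval around 0.

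Phlda3, Bax and Bbc3 are the p53 targets of this set that act on cell survival. Phlda3 (chr1:135766119-135769136, plus strand) encodes a protein that holds back AKT signalling. It stood at 19.6, 18.4 and 21.5 FPKM in control, 15.3, 14.7 and 10.5 at VILI 0 hours and 22.3, 20.2 and 14.5 at VILI 6 hours. All libraries of VILI 0 hours were below all controls, while VILI 6 hours spanned both groups. Phlda3 fell by 0.57 on the log2 scale at VILI 0 hours (SE 0.19, limma adjusted p = 0.194), a call that was lost without VILI 0 hours replicate 3 (−0.40), the library with the high cardiac muscle markers, whose part in this was not tested. At VILI 6 hours the difference from control was −0.081 (95% interval −0.50 to 0.34), and it was 0.046 when each library was centred on its median. Phlda3 rose by 0.49 from VILI 0 hours to VILI 6 hours (adjusted p = 0.441), which did not hold without VILI 0 hours replicate 3 (0.32), VILI 6 hours replicate 1 (0.36) or VILI 6 hours replicate 2 (0.43).

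Bax (chr7:45461697-45466898, minus strand), the effector that opens the outer mitochondrial membrane, was read at 16.6, 21.4 and 17.8 FPKM in control, 16.6, 21.0 and 20.7 at VILI 0 hours and 23.4, 23.4 and 16.1 at VILI 6 hours. The groups overlapped. The log2 fold change was 0.062 (95% interval −0.33 to 0.45, limma adjusted p = 0.895) and 0.16 (−0.23 to 0.55, adjusted p = 0.61). Leaving out VILI 6 hours replicate 3 took Bax past the threshold at VILI 6 hours (0.34). Of its 5 rows, rows 1 and 5 were listed at 0 in every library, row 2 held 11.1 to 14.1 FPKM and row 4 varied from 1.75 to 8.41 FPKM. Taken by its highest row, Bax was lower at VILI 0 hours (−0.24). Gm45808 overlaps Bax on the same strand, so that reads may be split between the pair.

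Bbc3 (chr7:16308393-16318205, plus strand) encodes PUMA, a BH3-only protein that frees BAX to act. Its level was 5.45, 6.63 and 5.17 FPKM in control, 6.61, 5.48 and 5.56 at VILI 0 hours and 7.29, 9.15 and 6.58 at VILI 6 hours. VILI 6 hours replicate 3 fell just below the highest control, and VILI 0 hours overlapped control fully. Bbc3 rose by 0.40 on the log2 scale at VILI 6 hours (SE 0.16, limma adjusted p = 0.212), with a difference of 0.035 (95% interval −0.33 to 0.40) at VILI 0 hours. The call at VILI 6 hours was lost without control replicate 1 (0.37), control replicate 3 (0.33) or VILI 6 hours replicate 2 (0.27), by the highest row (0.30) and in the fit of only the 6 libraries compared (0.40, adjusted p = 0.29). The rise from VILI 0 hours to VILI 6 hours was 0.37 (adjusted p = 0.494), and it was lost when any of 7 of the 9 libraries was left out (0.24 to 0.40). With Phlda3, these were 2 of 10 genes called between the times, against 10% of all genes.

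The GADD45 genes were the family in which every member rose at both times. Gadd45a lies at chr6:67035096-67037457 (minus strand), Gadd45b at chr10:80930073-80932204 (plus strand) and Gadd45g at chr13:51846678-51848468 (plus strand). The 250 bases before each RefSeq start (GRCm38.p6) are shown 5′ to 3′ on the strand of the gene because these members moved together. They are chr6:67037408-67037657, chr10:80929841-80930090 and chr13:51846425-51846674. Capitals mark a p53 half-site in Gadd45a (the last match in its window), TATAAA in Gadd45b and Gadd45g, and CCAAT in all of them. TATAAA and CCAAT were chosen after the values were seen.
Gadd45a: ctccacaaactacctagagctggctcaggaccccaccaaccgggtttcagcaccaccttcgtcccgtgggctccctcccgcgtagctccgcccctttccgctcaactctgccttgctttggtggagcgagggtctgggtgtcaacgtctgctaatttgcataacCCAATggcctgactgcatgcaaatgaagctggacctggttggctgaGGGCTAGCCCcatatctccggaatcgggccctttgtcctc
Gadd45b: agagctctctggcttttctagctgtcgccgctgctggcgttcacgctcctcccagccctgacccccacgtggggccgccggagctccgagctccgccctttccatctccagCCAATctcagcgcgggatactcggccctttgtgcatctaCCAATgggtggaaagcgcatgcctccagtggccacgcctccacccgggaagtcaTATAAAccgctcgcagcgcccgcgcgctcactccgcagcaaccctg
Gadd45g: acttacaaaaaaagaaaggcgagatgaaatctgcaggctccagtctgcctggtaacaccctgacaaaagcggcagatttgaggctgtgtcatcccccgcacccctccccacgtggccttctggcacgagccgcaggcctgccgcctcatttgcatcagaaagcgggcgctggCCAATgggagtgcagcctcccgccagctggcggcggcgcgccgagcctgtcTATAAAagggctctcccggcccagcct

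TATAAA began 46 bases before the start of Gadd45b and 27 bases before that of Gadd45g, and it was absent from the window of Gadd45a. Of all promoter windows 12.4% held TATAAA and 33.8% held CCAAT, on either strand. Among the 10 genes CCAAT was also found for Trp53, Mdm2, Ccng1 and Bbc3, and TATAAA also for Trp53. Cdkn1a, Phlda3 and Bax had neither in their windows, so that these motifs were not particular to the GADD45 genes or to the genes that rose. The half-site of Gadd45a lay 40 to 31 bases before its start. A second motif, the kappaB site of the NF-kB factors, was found in none of the 3 GADD45 windows and in 1 of the 13 windows of the 10 genes (Bbc3), against 3.90% of all windows. The letters of a window do not show which factor acted on it.

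Gadd45a was read at 6.47, 7.06 and 6.91 FPKM in control, 9.42, 13.8 and 11.7 at VILI 0 hours and 9.07, 13.9 and 13.4 at VILI 6 hours. All VILI libraries were above all controls, which were close together. It rose by 0.75 on the log2 scale (SE 0.19, limma adjusted p = 0.107) at VILI 0 hours and by 0.80 (SE 0.19, adjusted p = 0.0849) at VILI 6 hours. Leaving out any 1 library kept both calls, with rises of 0.62 to 0.89 and 0.69 to 0.99. The 2 further rows of Gadd45a were listed at 0 throughout, and E230016M11Rik overlaps the gene on the opposite strand.

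Gadd45b, the most abundant of the 3 in control, was read at 28.4, 28.5 and 27.8 FPKM there, at 49.7, 48.6 and 36.8 at VILI 0 hours and at 30.4, 44.3 and 55.6 at VILI 6 hours. The groups did not overlap with control, although VILI 6 hours replicate 1 exceeded the highest control by little. The rise was 0.66 on the log2 scale (SE 0.20, limma adjusted p = 0.166) at VILI 0 hours and 0.57 (SE 0.20, adjusted p = 0.171) at VILI 6 hours. The call at VILI 0 hours was kept when any 1 library was left out. At VILI 6 hours it was lost without replicate 2 (0.54) or replicate 3 of that group (0.37), and the rise was 0.81 (adjusted p = 0.0076) without replicate 1.

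Gadd45g changed the most of the 3. Its level was 9.04, 7.90 and 9.85 FPKM in control, 32.4, 33.3 and 30.6 at VILI 0 hours and 15.5, 63.4 and 62.1 at VILI 6 hours. The VILI 0 hours libraries were close to each other at 3.59 times the control mean, whereas VILI 6 hours had replicates 2 and 3 far above and replicate 1 far below them. Gadd45g rose by 1.84 on the log2 scale (SE 0.45, limma adjusted p = 0.101) and by 2.13 (SE 0.45, adjusted p = 0.0675), and leaving out any 1 library kept both calls. The rise at VILI 6 hours was 2.81 without replicate 1 of that group (adjusted p = 2.3e-05). Between the times the difference was 0.30 (95% interval −0.71 to 1.30). Without VILI 6 hours replicate 1 it was 0.97, with an adjusted p of 0.0103, and Gadd45g was then the only one of the 10 genes called between the times.

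The summed level of the 3 GADD45 genes was 44.0 ± 0.52 FPKM in control (SD, n = 3), 88.7 ± 8.58 at VILI 0 hours and 102.5 ± 41.5 at VILI 6 hours. Gadd45b made up 64.2 ± 1.67% of this sum in control, 50.5 ± 3.92% at VILI 0 hours and 44.7 ± 9.66% at VILI 6 hours. The share of Gadd45g was 20.3 ± 1.99%, 36.3 ± 2.09% and 42.6 ± 12.7% in the same order, and that of Gadd45a was 15.5 ± 0.75%, 13.2 ± 2.51% and 12.7 ± 3.34%. Gadd45g exceeded Gadd45b in VILI 6 hours replicates 2 and 3 alone. These shares were described and not tested.

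**Figure D4:**
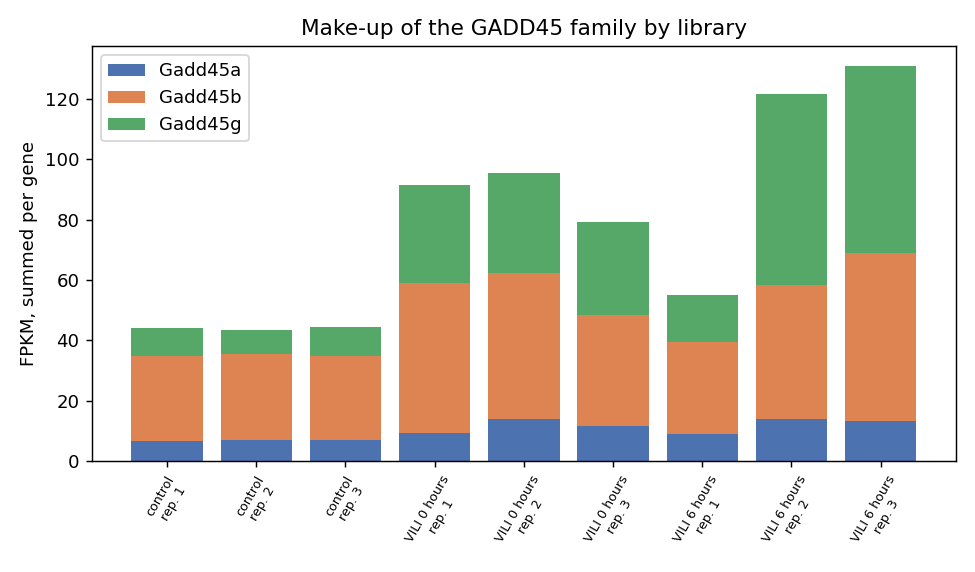
FPKM (y axis, from 0) of Gadd45a, Gadd45b and Gadd45g stacked for each of the 9 libraries. The stack stands near 44.0 FPKM in the controls and is higher in all VILI libraries, with replicate 1 of VILI 6 hours the lowest of these at 54.9 FPKM, and the Gadd45g part grows the most.

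Without VILI 6 hours replicate 1, Cdkn1a, Gadd45a, Gadd45b and Gadd45g all had an adjusted p under 0.05 against control at both times (limma), with 0.0232 the largest at VILI 0 hours and 0.0076 at VILI 6 hours. Over all genes the same step raised the number with an adjusted p under 0.05 from 55 to 1343 at VILI 0 hours and from 136 to 4512 at VILI 6 hours. VILI 0 hours values do not contain that library, and their adjusted p moved because the 3 groups share 1 estimate of the spread. The list of 10 then held 4 that rose and 2 that fell (Trp53 and Phlda3) at VILI 0 hours, and 5 that rose and 1 that fell (Trp53) at VILI 6 hours at an unadjusted P under 0.05. Over all genes in that fit 8.98% rose and 14.2% fell at VILI 0 hours, and 12.8% rose and 26% fell at VILI 6 hours.

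By the smallest root mean square gap in centred log2 FPKM over the 9 libraries, the genes most like Cdkn1a among 14104 compared were Gm11827 (gap 0.47), Csrnp1 (0.48) and Pdk4 (0.51). Pdk4, a kinase that blocks pyruvate dehydrogenase, had 1.99, 2.03 and 2.50 FPKM in the 3 controls, and 30.7, 15.6 and 29.4 FPKM when ventilation ended. At VILI 6 hours it was at 2.24, 19.2 and 22.6 FPKM. Being chosen for its likeness to Cdkn1a over these libraries, it is no second observation of that pattern. The genes most like Gadd45a were Slc25a30 (0.085), Gcnt1 (0.14) and Ctsh (0.14), and those most like Gadd45b were Rassf5 (0.10), Acadl (0.13) and Hmgb2 (0.13). Among the 10 genes themselves, the gap of Cdkn1a was smallest to Gadd45g (0.80) and that of Gadd45a to Gadd45b (0.23), while Mdm2 was closest to Ccng1 (0.21).

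Other genes of the pathway were described by 6 lists with 100 genes. Of 30 other p53 targets, 9 rose and 3 fell at VILI 0 hours, against 6.81% and 9.35% of all genes. At VILI 6 hours 7 rose and 3 fell, against 8.17% and 12.2% of all genes. The median log2 fold changes of the list were 0.045 and 0.11, against −0.070 and −0.089 over all genes. The largest rise was that of Ddit4, which encodes REDD1, an inhibitor of mTORC1, from 6.59 ± 0.15 FPKM in control to 51.2 ± 38.2 at VILI 0 hours (log2 fold change 2.70, limma adjusted p = 0.133) and 43.3 ± 31.8 at VILI 6 hours (2.20, adjusted p = 0.165). Fas, the death receptor, rose by 1.54 at VILI 0 hours (adjusted p = 0.141), from 23.8 ± 2.58 to 70.4 ± 16.0 FPKM, and by 1.02 at VILI 6 hours (adjusted p = 0.238), or 1.64 without replicate 1 of that group (adjusted p = 0.0012). Sfn, encoding 14-3-3 sigma, rose by 1.27 at VILI 6 hours (adjusted p = 0.226), from 8.01 ± 1.23 to 24.2 ± 20.7 FPKM. The call of Ddit4 at VILI 6 hours was lost without replicate 2 or 3 of that group (1.80 and 1.61), and the rise was 3.18 (limma adjusted p = 0.0027) without replicate 1. That of Sfn was lost without any 1 of the 3 controls or without VILI 6 hours replicate 3 (0.61 to 1.37), and the rise was 1.56 without replicate 1 (adjusted p = 0.0815).

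Among the p53 targets that fell, Eda2r, a receptor for ectodysplasin A2, decreased by 1.06 on the log2 scale at VILI 0 hours (limma adjusted p = 0.203) and by 1.44 at VILI 6 hours (adjusted p = 0.0964), from a low 1.68 ± 0.20 FPKM in control to 0.76 ± 0.15 and 0.62 ± 0.40. Zmat3 decreased by 0.38 at VILI 0 hours (adjusted p = 0.255), and Plk2, a polo-like kinase, by 0.87 at VILI 6 hours (adjusted p = 0.187). The call of Eda2r at VILI 0 hours was lost without control replicate 3 (−0.97) or VILI 0 hours replicate 1 (−0.94), that of Zmat3 without control replicate 1 or 2 or VILI 0 hours replicate 1 or 2 (−0.37 to −0.32), and that of Plk2 without control replicate 1 or 3 or VILI 6 hours replicate 2 or 3 (−0.87 to −0.59). The changes at VILI 6 hours were −1.86 for Eda2r (limma adjusted p = 0.0027) and −1.20 for Plk2 (adjusted p = 0.0176) without replicate 1 of that group. No gene of this list had an adjusted p under 0.05 in the fit of all 9 libraries, the smallest being 0.0964. Without VILI 6 hours replicate 1, 10 rose and 6 fell at VILI 6 hours, against 12.8% and 26% of all genes in that fit. Of these, 7 that rose and 4 that fell had an adjusted p under 0.05 (limma), against 8.15% and 15.1% of all genes. The median of the list at VILI 6 hours was then −0.00022, against −0.14 over all genes.

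**Figure D5:**
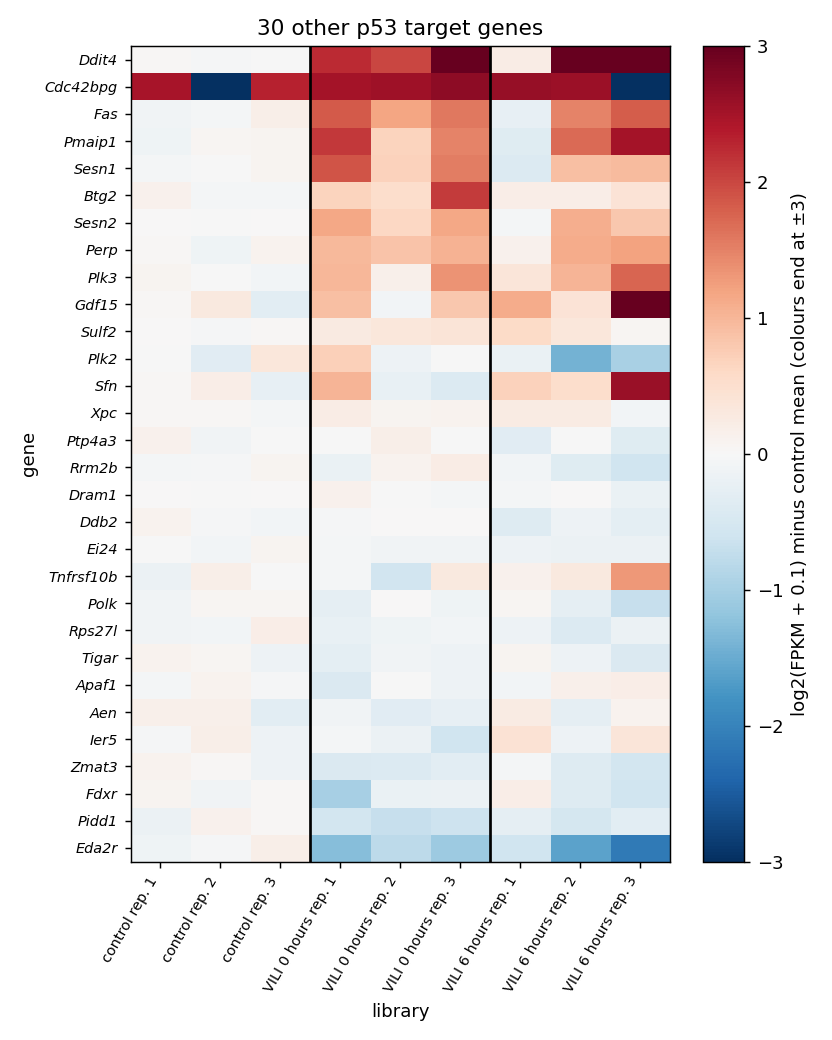
log2(FPKM + 0.1) of the 30 other p53 targets (rows) minus the mean of the 3 controls (colour) in the 9 libraries (columns), ordered by the mean at VILI 0 hours. Ddit4, Fas, Pmaip1 and Sesn1 are high in all 3 VILI 0 hours libraries, Eda2r is low in all VILI libraries, and VILI 6 hours replicate 1 is paler than its group for Ddit4, Fas, Pmaip1 and Sesn1; Cdc42bpg is listed at 0 in 2 libraries, which sets its colours.

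Of 15 genes that regulate p53 or belong to its family, 1 rose and 5 fell at VILI 0 hours, and none rose and 2 fell at VILI 6 hours, where 9.35% and 12.2% of all genes fell, with medians of −0.21 and −0.17 against −0.070 and −0.089 over all genes. Trp53inp1, which promotes p53 activity and autophagy, rose by 1.49 on the log2 scale at VILI 0 hours (limma adjusted p = 0.196), from 33.8 ± 4.60 to 98.1 ± 31.2 FPKM, a call lost without VILI 0 hours replicate 1 (1.30). Atm, the kinase that signals DNA double-strand breaks to p53, fell by 0.52 at VILI 0 hours (adjusted p = 0.197) and by 0.62 at VILI 6 hours (adjusted p = 0.116), from 7.87 ± 0.093 FPKM to 5.51 ± 0.77 and 5.16 ± 1.18. Trp53bp1 fell by 0.67 at VILI 0 hours (adjusted p = 0.23), from 7.43 ± 0.85 to 4.63 ± 0.58 FPKM. The calls at VILI 0 hours were lost without replicate 1 of that group for Atm (−0.40) and Trp53bp1 (−0.56), and without control replicate 2 for Trp53bp1 (−0.58). The list without VILI 6 hours replicate 1 held 1 gene that rose and 5 that fell at VILI 6 hours, 1 and 3 of them with an adjusted p under 0.05, and its median was −0.46. Over all genes in that fit 12.8% rose and 26% fell (8.15% and 15.1% by adjusted p), with a median of −0.14. Trp53inp1 then rose by 1.44 at VILI 6 hours (adjusted p = 0.0077), and Atm fell by 0.80 (adjusted p = 0.0064).

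The BCL2 family held 15 genes, of which 14 were tested. At each time 2 rose and none fell, where 6.81% and 8.17% of all genes rose, or 12.8% at VILI 6 hours without replicate 1 of that group. The medians were 0.080 and 0.046, and both genes that rose encode proteins that block apoptosis. Bcl2l1 (BCL-XL) rose from 29.7 ± 1.41 FPKM to 109 ± 25.0 at VILI 0 hours (log2 fold change 1.84, limma adjusted p = 0.0926) and 93.2 ± 51.1 at VILI 6 hours (1.43, adjusted p = 0.13). Mcl1 rose from 106 ± 4.14 FPKM to 159 ± 21.0 (0.58, adjusted p = 0.102) and 147 ± 25.3 (0.46, adjusted p = 0.14). All 4 calls were kept when any 1 library was left out. With VILI 6 hours replicate 1 left out, the rises at VILI 6 hours were 2.04 for Bcl2l1 (limma adjusted p = 0.00032) and 0.60 for Mcl1 (adjusted p = 0.0087), these were still the 2 that rose, and the median of the list was 0.14.

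Of 6 other inhibitors of cyclin-dependent kinases, 2 rose and 1 fell at VILI 0 hours, against 6.81% and 9.35% of all genes. At VILI 6 hours 1 rose and 2 fell, against 8.17% and 12.2% of all genes. The medians of the list were 0.15 and 0.067, against −0.070 and −0.089 over all genes. Cdkn2c (p18) fell by 0.80 on the log2 scale (limma adjusted p = 0.105) and by 0.77 (adjusted p = 0.101), and both calls were kept with any 1 library left out. Cdkn1b (p27) rose by 0.38 at VILI 0 hours (adjusted p = 0.255) and fell by 0.34 at VILI 6 hours (adjusted p = 0.239), calls that were lost in 3 (0.26 to 0.35) and 5 (−0.38 to −0.21) of the 9 fits with 1 library left out, whereas its difference between the times, −0.73 (adjusted p = 0.184), was kept in all. Cdkn1c (p57) rose by 0.38 at VILI 0 hours (adjusted p = 0.247) and Cdkn2d (p19) by 1.30 at VILI 6 hours (adjusted p = 0.173). The first was lost without any 1 control or VILI 0 hours replicate 2 or 3 (0.25 to 0.38), and the second without control replicate 2 or VILI 6 hours replicate 2 or 3 (0.86 to 1.18). Cdkn2d rose by 1.94 without VILI 6 hours replicate 1 (limma adjusted p = 0.00083). The list then again held 1 that rose and 2 that fell at VILI 6 hours, against 12.8% and 26% of all genes in that fit. Its median was −0.037, against −0.14 over all genes.

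Among 11 kinases of the p38 and JNK modules with which GADD45 proteins work, none rose and 2 fell at VILI 0 hours. At VILI 6 hours 1 rose and 2 fell. Over all genes 6.81% rose and 9.35% fell at VILI 0 hours, and 8.17% rose and 12.2% fell at VILI 6 hours. The medians of the list were −0.12 and −0.15, against −0.070 and −0.089 over all genes. Mapk11 (p38 beta) fell by 0.73 on the log2 scale (limma adjusted p = 0.114) and Mapk12 (p38 gamma) by 0.53 (adjusted p = 0.0991) at VILI 0 hours, calls kept with any 1 library left out. At VILI 6 hours Mapk13 (p38 delta) rose by 0.65 (adjusted p = 0.131), Map2k6 fell by 1.24 (adjusted p = 0.164) and Mapk8 (JNK1) fell by 0.55 (adjusted p = 0.166). Mapk8 lost its call without control replicate 2 (−0.52) or control replicate 3 (−0.40). With 1 library left out, Map2k6 fell by 0.70 at the least, and by 1.69 without VILI 6 hours replicate 1 (limma adjusted p = 0.012). Without that library Mapk13 rose by 0.85 (adjusted p = 0.0078). Of the 11 kinases 3 then rose and 4 fell at VILI 6 hours, against 12.8% and 26% of all genes in that fit. The median was −0.21, against −0.14 over all genes.

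Of 23 cell cycle genes, none rose and 3 fell at VILI 0 hours, against 6.81% and 9.35% of all genes. At VILI 6 hours 1 rose and 1 fell, against 8.17% and 12.2% of all genes. Mcm2 and Mcm5, subunits of the replicative helicase, fell by 0.64 and 0.58 on the log2 scale at VILI 0 hours (limma adjusted p = 0.189 and 0.184), the first not without control replicate 2 (−0.50), and the second not by its highest row (0.064). Birc5 (survivin) rose by 0.90 at VILI 6 hours (adjusted p = 0.202) and Mcm7 fell by 0.33 (adjusted p = 0.193). Both calls were lost without control replicate 3 or VILI 6 hours replicate 2 or 3 (0.56 to 0.84 and −0.30 to −0.27), and that of Mcm7 also without control replicate 2 (−0.33). The median log2 fold change of the list was −0.21 at VILI 0 hours and 0.19 at VILI 6 hours, against −0.070 and −0.089 over all genes. Without VILI 6 hours replicate 1, 10 of the 23 rose and 4 fell at VILI 6 hours, against 12.8% and 26% of all genes. The median in that fit was 0.43, against −0.14 over all genes. Birc5 then rose by 1.30 (limma adjusted p = 0.0108) and Mcm7 fell by 0.39 (adjusted p = 0.0543).

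Between the times, where 5.06% of all genes were called higher and 4.94% lower, 1 of the 30 other p53 targets was higher and 6 were lower at VILI 6 hours than at VILI 0 hours. Without VILI 6 hours replicate 1 the targets held 3 higher and 3 lower, against 8.55% and 13.9% of all genes in that fit. None of the 15 p53 regulators was called in either fit. Of the 14 BCL2 family genes tested, none was higher and 1 was lower, and without that library 1 was higher and 2 were lower. Of the 6 other CDK inhibitors, none was higher and 2 were lower, and without it 2 were higher and 1 was lower.

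Of the 11 kinases, 3 were higher and none was lower at VILI 6 hours than at VILI 0 hours, and without VILI 6 hours replicate 1 there were 5 higher and 1 lower. Of the 23 cell cycle genes, 4 were higher and none was lower, and without that library 12 were higher and 3 lower. The cell cycle list had a median log2 fold change of 0.40 against −0.024 over all genes, and without the library 0.70 against −0.081. None of these calls had an adjusted p under 0.05 in the limma fit of all 9 libraries. Among the cell markers, none of the 12 neutrophil genes tested was called between the times in that fit. Without VILI 6 hours replicate 1, 6 of them were higher and none was lower. Of 5 erythroid markers 3, and of 7 endothelial markers 2, were lower in both fits. The part of these cells was not tested.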

How the data were processed

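Groups were taken from the sample labels. The authors deposited FPKM values per transcript row. Per the labels (the submitters' processing notes) and the methods of the study, reads were aligned with TopHat 2.0.9 and Bowtie2 2.0.6 to GRCm38, transcripts were assembled with Scripture and Cufflinks, and FPKM were estimated with Cuffdiff 2.1.1. The labels name a TruSeq RNA kit and the methods a directional NEBNext kit, and the strand setting of the counting was not given in the sources used here. The table had 60108 rows under 27203 gene IDs, and 23580 of 23713 Ensembl IDs matched GENCODE M21. FPKM were summed per gene.

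Moderated linear models (limma 3.58.1, R 4.3.3) with a mean-variance trend were fitted to log2(FPKM + 0.1) of 19378 genes with a mean of at least 0.1 FPKM, after a test on simulated data. The model had a term for group and used all 9 libraries at once. Such fold changes understate those of low genes. Without counts the depth is unknown, so precision comes from the spread of 3 libraries a group. By the study's account each group was sequenced from 3 mice, so P measures the spread between mice together with that of library preparation. The members and lists were chosen with earlier results of these data known. All 10 members are named, and from each list, per comparison, the called genes with a mean of at least 1 FPKM and the 2 largest rises and falls. Alternatives were other pseudocounts, filters, scalings, the highest row, a replicate block, fits without the trend or of 6 libraries, and each library left out. Promoters came from RefSeq (GRCm38.p6). Motifs were searched in Python 3.11.15, and exact permutation tests used 20 divisions of 6 libraries.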

Additional observations from a re-analysis of the deposited data

Results flagged for a closer look

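Of the genes named here by the rule on named genes, 12 differed between the effects at the 2 times, by the direct test of VILI 6 hours vs VILI 0 hours (limma, unadjusted P under 0.05), and none had an adjusted p under 0.05 in the fit of all 9 libraries. Plk2 (−1.38, adjusted p = 0.0477) and Mapk11 (0.94, adjusted p = 0.0476) had one in the fit without VILI 6 hours replicate 1. Those of the 12 outside the 10 main genes were named because they passed this same test, so that their number is no result. Of all genes 10% passed it. The 12 held 2 of the 10 main genes, Phlda3, with a log2 fold change of 0.49, and Bbc3, with 0.37. Among the other p53 targets, Ier5 was higher at VILI 6 hours by 0.50, while Plk2 (−1.05) and Sesn1 (−0.89) were lower. Bcl2l2 of the BCL2 family was lower (−0.94), as were the inhibitors Cdkn1b (−0.73) and Cdkn1c (−0.34). The kinases Mapk11 (1.06) and Map2k3 (0.45) and the cell cycle genes Birc5 (0.86) and Plk1 (0.80) were higher. The differences of Plk2, Cdkn1b and Mapk11 passed the threshold in all 9 fits with 1 library left out, and the others lost it in 2 to 8 of the 9 fits. Groups of 3 libraries are too small for a test of single outlying libraries.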

How the results depend on the processing

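Without counts, depth sets no known limit here, and 3 libraries a group limit every call. With 1 library left out in turn, the number of the 10 main genes called ran from 4 to 6 at VILI 0 hours vs control, from 2 to 6 at VILI 6 hours vs control and from 0 to 3 between the times. Over all genes the unadjusted calls ran from 1979 to 4493, 2543 to 7526 and 1407 to 4350, and the adjusted ones from 1 to 1343, 0 to 4512 and 0 to 356, the highest in each case without VILI 6 hours replicate 1. The cause was not tested.

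Against control, the number of the 10 genes called went from 5 to 6 at VILI 0 hours and from 5 to 4 at VILI 6 hours (Bbc3 lost) by the highest row and with only the 6 libraries compared. Between the times, 1 was called with a pseudocount of 1, with median-centred libraries or without the trend, and 0 with only the 6 libraries compared. For adjusted calls over all genes at VILI 0 hours, a pseudocount of 1 gave 15, no filter 1, the highest row 7, only 6 libraries 1597 (5094 unadjusted), a replicate block 10 and no trend 20. At VILI 6 hours no filter gave 75, the highest row 11, only 6 libraries 36, a replicate block 43 and no trend 41. Between the times only 6 libraries gave 1 (1210 unadjusted) and no trend 2. The replicate numbers did not pair the libraries (correlations of deviations from −0.22 to 0.018 over 9 pairs). In 3 of 9 comparisons of a library with another group, the library of the same number correlated best. With the replicate block 6, 5 and 2 of the 10 genes were called.

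Centring on the median shifted fold changes by 0.11 and 0.13 at the 2 times against control, and the share of calls that were up from 42.1% to 61.2% and from 40.1% to 58.1%. Phlda3 then stood at 0.046 at VILI 6 hours. By the highest row, the sign turned for Trp53 (1.37 and 1.87), Bax (−0.24 and −0.016) and Mcm5 (0.064 at VILI 0 hours). The values of Trp53 rest on control replicate 2, where that row held 0.039 FPKM.

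With 1 library left out, values that crossed 0 at VILI 0 hours were those of Ccng1 (−0.087 to 0.19), Bax (−0.017 to 0.17) and Bbc3 (−0.050 to 0.14). In the later comparison with control they were Mdm2 (−0.015 to 0.070) and Phlda3 (−0.21 to 0.10). Between the times they were Trp53 (−0.17 to 0.18), Cdkn1a (−1.16 to 0.50), Bax (−0.011 to 0.28), Gadd45a (−0.092 to 0.25), Gadd45b (−0.28 to 0.15) and Gadd45g (−0.048 to 0.97).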
